A study of Danio rerio with 16 samples.

Results

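The DNA methylomes of zebrafish somatic cells at 24 and 36 hours post fertilisation (hpf) are described here, from 4 libraries of the 16 in the series. By their labels they are both replicates of soma at 24 hpf and both at 36 hpf. All embryos carried the kop-egfp-f-nanos3′UTR transgene, from a line in which farnesylated EGFP is made in primordial germ cells (PGCs), the precursors of sperm and eggs, with a cry:dsred lens marker. Soma was what the cell sorter separated from the EGFP-positive PGCs of the same stage. Both stages lie in the pharyngula period, when organs are forming, and per the study's methods pigmentation was blocked with N-phenylthiourea in embryos older than 24 hpf. Embryos were raised at several temperatures, which are not given per library. The soma libraries are therefore mixtures of all somatic lineages, and a change in which cells were present cannot be told apart from a change within cells. Nor can stage be told apart from the pigment blocker. The tables hold methylation calls and no expression, so the somatic label could not be checked against marker genes. The replicates of these stages are called biological in the study's methods, whereas those of 4 hpf are called technical.

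Methylated cytosine (5mC) in vertebrates lies almost entirely at CpG dinucleotides, where maintenance enzymes copy the mark to the new strand after replication. Most zebrafish CpGs are methylated, whereas CpG-rich promoters stay free of the mark. Methylation can be lost passively, by replication without maintenance, or actively, through oxidation by TET enzymes, and in vertebrate embryos active loss at distal enhancers is known from the stage of organ formation.

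Whole-genome bisulfite sequencing reads unmethylated cytosines as thymine, and the level of a CpG is the share of calls that read as methylated. The 10260021 nuclear CpGs listed in both replicate tables were used throughout. Coverage per CpG was 13.6 and 15.9 calls at 24 hpf and 21.6 and 13.3 calls at 36 hpf in replicates 1 and 2, so depth went up with stage in replicate 1 and down in replicate 2. The share of methylated calls on mitochondrial DNA, which stands for unconverted cytosines, was 0.401% and 0.400% at 24 hpf, against 0.366% and 0.287% at 36 hpf.

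The first comparison asked whether the overall 5mC level of soma moved between the stages. It was 82.9% and 82.8% at 24 hpf and 82.0% and 81.7% at 36 hpf in replicates 1 and 2. Both libraries at 36 hpf were below both at 24 hpf, with within-table differences of -0.930 points (replicate 1) and -1.08 points (replicate 2). With levels corrected for the methylated mitochondrial calls, a correction not planned in advance, these were -0.928 and -1.06 points. The mean went from 82.8% ± 0.0535 to 81.8% ± 0.157 (SD, n = 2) and differed by -1.003 points, more than either SD. An exact two-sided permutation test of the library labels gave p = 0.333, the smallest value that 2 libraries against 2 allow, so the design cannot pass a threshold of 0.05 for this level. Wilson 95% intervals of the 4 libraries, which cover counting error only, were at most 0.0129 points wide.

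**Figure D1:**
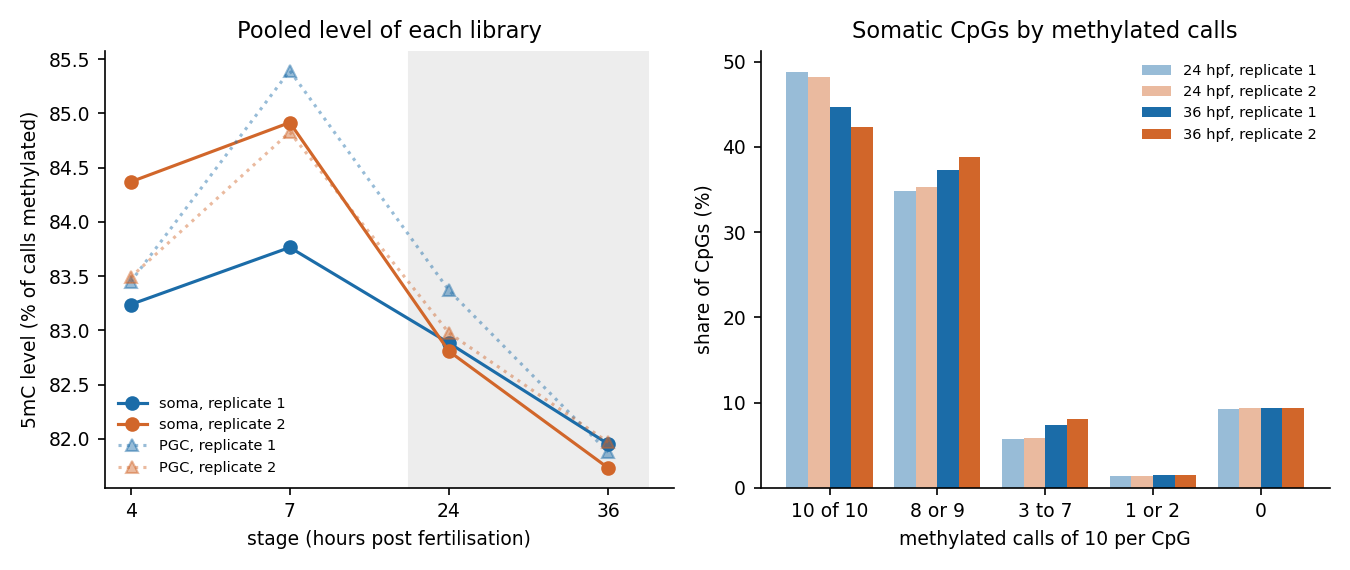
Left, the share of all calls that were methylated in each library of soma (circles) and PGCs (triangles) by stage, with the 24 and 36 hpf libraries shaded. The vertical axis does not start at 0. Right, the expected share of CpGs by number of methylated calls when each CpG is thinned to 10 calls, in the 4 somatic libraries. At 36 hpf the class with 10 of 10 methylated calls holds 44.7% and 42.3% of CpGs, against 48.8% and 48.2% at 24 hpf.

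To see which CpGs carried this difference at equal depth, the 5492065 CpGs that reached 10 calls in each of the 4 libraries were thinned to 10. CpGs with 10 of 10 methylated calls made up 48.8% and 48.2% at 24 hpf, but 44.7% and 42.3% at 36 hpf. The neighbouring class of 8 or 9 methylated calls went the other way, from 34.8% and 35.3% to 37.3% and 38.8%, and that of 3 to 7 calls from 5.71% and 5.83% to 7.32% and 8.03%. CpGs without a methylated call kept nearly the same share, 9.30% and 9.35% at 24 hpf against 9.32% and 9.41% at 36 hpf. The lower level at 36 hpf thus showed in fewer CpGs methylated in every call, while the share of unmethylated CpGs differed by 0.0172 and 0.067 points.

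The genome was next cut into windows of 500 bp, of which 798040 of 1802463 held at least 5 CpGs and at least 30 calls in each of the 4 libraries. Windows were classed by their 24 hpf level in one table and measured in the other, so that counting error of the class does not enter the change. The largest losses were at intermediate levels. Windows at 50 to 70% went from 64.5% to 60.3% in replicate 1 and from 61.8% to 57.5% in replicate 2, which is -4.20 and -4.31 points. The class of 70 to 80% was close to it with -4.01 and -4.25 points. Fully methylated windows, those at 90 to 100%, went from 94.1% to 93.3% and from 94.1% to 92.7%, or by -0.827 and -1.36 points. Since they were 72.3% and 71.6% of windows, they nevertheless carried 59.5% and 65.0% of the net loss, and the class of 50 to 70% carried 6.29% and 4.68%. Unmethylated windows, below 10%, differed by 0.0368 and 0.0665 points. Between 10 and 30% the tables went opposite ways, with -0.347 and 1.22 points.

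Losses outnumbered gains in every class from 30% upwards. Of windows at 50 to 70%, 33.0% lost at least 10 points in replicate 1 and 33.4% in replicate 2, and 11.9% and 10.9% gained as much. At 90 to 100% the shares were 2.13% and 3.58% for losses and 0.975% and 0.711% for gains. That class stood at 94.1% in both tables at 24 hpf, which leaves its windows little room to gain 10 points. These shares hold counting error, since a window had a median of 108 to 174 calls in a library. When the class was set by the 7 hpf level instead, windows at 50 to 70% differed by only -0.0671 points on average and those at 30 to 50% by 0.556 points. Those at 70 to 80% and at 80 to 90% by the 7 hpf level differed by -0.870 and -1.21 points.

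**Figure D2:**
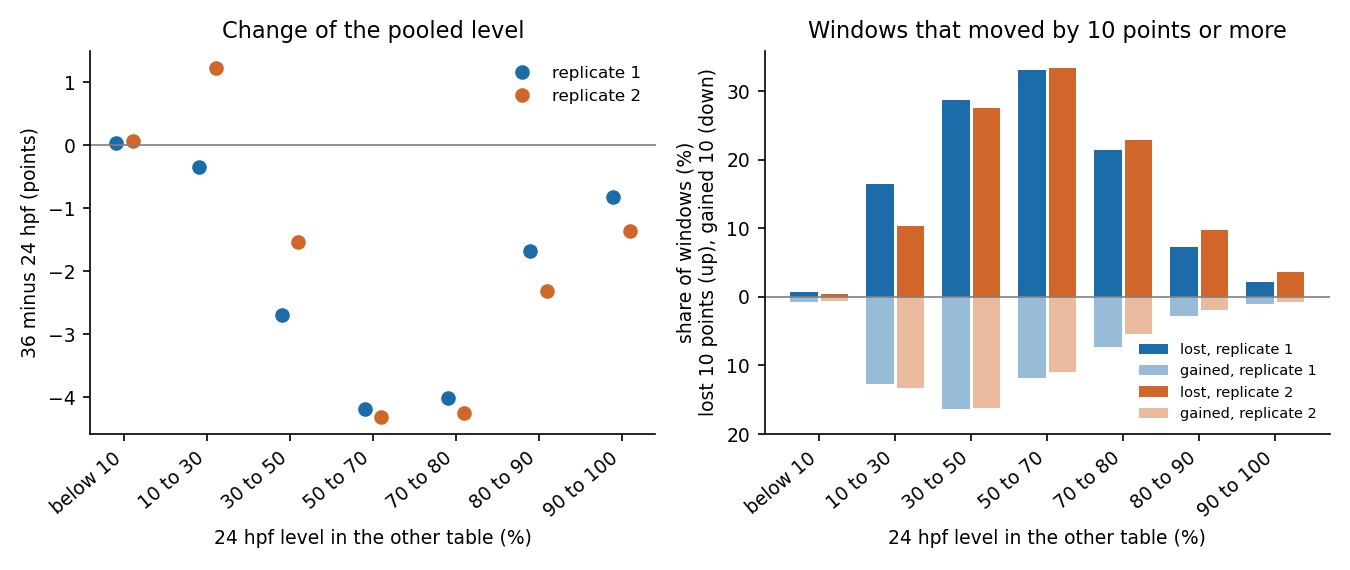
Left, the change of the pooled 5mC level from 24 to 36 hpf in windows of 500 bp, by the 24 hpf level that the window had in the other replicate table. Right, the share of windows in each class that lost (upward bars) or gained (downward, paler bars) at least 10 points. Changes are near 0 below 10%, reach -4.20 and -4.31 points at 50 to 70%, and end at -0.827 and -1.36 points above 90%.

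CpG density separated the windows further. Windows with 1 to 2 CpGs differed by -0.839 and -1.78 points in replicates 1 and 2, those with 5 to 9 CpGs by -1.12 and -1.66 points, and those with 10 to 19 CpGs by -1.02 and -1.36 points. Dense windows, with at least 20 CpGs, stood at 62.0% and 62.0% in replicate 1 and at 60.8% and 60.6% in replicate 2, a difference of 0.0331 and -0.150 points. Part of this follows from their level, as many dense windows are unmethylated. Within the class of 50 to 70%, however, windows with 5 to 9 CpGs differed by -5.30 and -4.98 points and those with 10 to 19 CpGs by -4.99 and -5.05 points. Dense windows of the same class differed by 0.532 and -0.278 points, over 484 and 495 windows. At 30 to 50% they differed by 0.415 and 2.04 points, where windows with 5 to 9 CpGs gave -3.98 and -3.33 points. From 70% upwards dense windows were lower at 36 hpf like the rest. At 70 to 80% they differed by -3.21 and -3.81 points, close to the -3.27 and -3.69 points of windows with 5 to 9 CpGs. Windows with 10 to 19 CpGs gave -5.17 and -5.40 points there. Dense windows differed by -1.23 and -2.02 points at 80 to 90%, and by -0.415 and -1.002 points at 90 to 100%. These are values of 2 tables, and the difference between density classes was not tested.

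Stretches that were already unmethylated early stayed so. Windows below 10% in the 4 and 7 hpf somatic libraries formed 23210 runs with a median length of 1000 bp. Their 684737 CpGs stood at 1.73% and 1.66% at 24 hpf and at 1.83% and 1.88% at 36 hpf. Within 500 bp of a run's edge the level was 44.0% and 42.8% at 24 hpf, with differences of -0.578 and -0.0315 points. From 500 to 1000 bp it was 85.6% and 85.3% at 24 hpf, and differed by -0.749 and -1.34 points. Beyond 10000 bp the level was 91.5% in both replicates at 24 hpf, and the difference was -1.06 and -1.73 points. In points, the difference was thus larger far from unmethylated runs than at their borders. The borders had less methylation to lose, and the difference relative to the level was not compared.

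Every one of the 25 chromosomes had a lower pooled level at 36 hpf in both replicates. In replicate 2 the differences ranged from -0.900 to -1.43 points. In replicate 1 they ranged from -0.637 to -1.19 points on all chromosomes but 4, where the level was 84.2% and 84.1% and the difference -0.0361 points. The median window of chromosome 4 did not share this, at -0.715 points (replicate 1) and -1.18 points (replicate 2), against -0.708 and -1.06 points over all windows. Without chromosome 4 the genome-wide differences were -0.977 and -1.06 points.

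Single windows were then tested for a change between the stages. By edgeR's quasi-likelihood test with Benjamini-Hochberg adjustment, 0 windows fell and 1 rose at an adjusted p under 0.05, that is 0% and 0.000125% of 798040. At an unadjusted p under 0.05 there were 41358 lower and 7367 higher windows, or 5.18% and 0.923%. Limma on log2 ratios called 0 in either direction, with 39886 lower and 8726 higher windows at an unadjusted p under 0.05. A quasi-binomial form of the edgeR fit, chosen after seeing the data, called 778 losses and 71 gains, or 0.0975% and 0.0089%, and had 5.79% and 0.967% at an unadjusted p under 0.05. The edgeR count also moved with single libraries. It was 110 losses and 86 gains without replicate 1 of 24 hpf, 310 and 105 without replicate 2 of 24 hpf, 20 and 5 without replicate 1 of 36 hpf, and 83 and 44 without replicate 2 of 36 hpf, where the lone library is assumed to vary like the pair of the other stage. On simulated windows this fit also missed nearly all of the largest changes, which limma and the quasi-binomial form mostly recovered, so its count of 0 alone says little. Limma, however, also called 0 windows on these data. The simulation assumed a single spread between libraries, so it does not give the power of any of these fits here. No statement on single windows therefore rests on the edgeR test.

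The 1 window called by edgeR, chr8:28985001-28985500 in danRer10 (21 CpGs), had 0% in both 24 hpf libraries and 71.9% and 48.5% at 36 hpf. Its 24 hpf levels rest on 34 and 118 calls, which allow up to 8.82% and 2.54%, and its shallowest library had 1.62 calls per CpG. Other libraries of the same window did not stay together, with 50.6% and 0% in soma at 7 hpf and 17.9% and 55.5% in PGCs at 24 hpf.

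Windows were also called by Fisher's exact test of 24 against 36 hpf with an adjusted p under 0.01 in both tables and at least 10 points the same way in both. This covers counting error within each table, and agreement of the tables stands in for replicate spread. It gave 1444 losses and 96 gains, 0.181% and 0.012% of the windows tested. Windows near full methylation can lose 10 points but hardly gain 10, so the rule does not give both directions the same room. In 26% of all windows both 36 hpf libraries were below both 24 hpf libraries, and in 9.77% both were above. By size alone, 956 windows lost at least 20 points in both tables and 83 gained as much. Either table alone called more, with 7932 losses and 1847 gains in replicate 1 and 7957 and 1083 in replicate 2. Most single-table calls were thus not shared, and the correlation of the change between tables was 0.143 over 798040 windows, given as a description, since windows of a library share its depth and errors. Of the 1444 losses 629 (43.6%) were also called by the quasi-binomial fit, as were 42 of the 96 gains (43.8%).

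The called losses were highly methylated before 24 hpf, as were most tested windows. At 4, 7, 24 and 36 hpf they averaged 94.1%, 93.1%, 79.9% and 59.4% in replicate 1, and 94.1%, 92.1%, 76.9% and 53.5% in replicate 2. All tested windows averaged 88.9% and 88.8% at 7 hpf and 86.4% in both replicates at 24 hpf. By the 7 hpf stage 94.5% of the called losses were at 80% or more, against 91.3% of tested windows. In both libraries of 24 hpf 17.0% were still at 90% or more, against 62.8% of tested windows. On average the called losses had thus already differed by -13.2 and -15.2 points from 7 to 24 hpf, against -2.45 points in all tested windows in both replicates. How many of them had fallen by 24 hpf was not counted. The 24 hpf libraries serve both steps, so the steps are not independent. Called losses had a median of 13 CpGs against 8 in all tested windows, and 12.5% held at least 20 CpGs against 5.86%. Their median coverage per CpG was 20.2 calls against 16.3, and the part of depth and of calls per window in these counts was not tested. Only 1 of them lay inside an early unmethylated run, where 5.51% of tested windows lay, and 80.1% lay more than 10000 bp from one, against 70.8%. CpGs inside these runs stood at 1.73% and 1.66% at 24 hpf, too low to lose 10 points. The rule thus kept such windows out and raised the share far from runs. Of tested windows within 500 bp of a run 0.115% were called losses, and at 500 to 1000 bp 0.243% (20 of 8222). The share was 0.144% to 0.159% from 1000 to 10000 bp and 0.205% beyond, and these differences were not tested. Of the 1444, 77 (5.33%) were next to another called loss, where 0.181% of tested windows were called losses. Clustering was not tested. Their share of tested windows ranged from 0.103% on chromosome 14 to 0.338% on chromosome 22.

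The called gains looked different. Over the same stages they averaged 44.6%, 45.8%, 42.3% and 65.9% in replicate 1, and 47.6%, 47.8%, 40.2% and 62.8% in replicate 2. At 7 hpf 13.5% of them were at 80% or more, against 91.3% of tested windows, whereas 5.21% were below 10%, close to the 5.50% of tested windows. Windows that stay at high levels have little room to gain 10 points, so part of the first gap follows from the rule. Of the 96, 5 (5.21%) lay inside an early unmethylated run, close to the 5.51% of tested windows. At least 20 CpGs were held by 26 (27.1%), against 5.86% of tested windows. A window with more CpGs tends to hold more calls, so it passes Fisher's test more easily. The share called rose with CpG number for losses too, from 0.0634% at 5 to 9 CpGs to 0.387% at 20 or more. For gains it rose from 0.00303% to 0.0556%, and the part of call number in this was not tested.

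A choice and a measurement in the same libraries overstates a change, so windows were chosen in one table and measured in the other. The 3515 windows that lost at least 20 points in replicate 1 (0.44% of those tested) went from 68.0% to 58.5% in replicate 2, or by -9.49 points. The 3961 windows chosen in replicate 2 (0.496%) went from 74.0% to 64.6% in replicate 1, or by -9.40 points. The changes in the choosing tables themselves were -27.3 and -27.7 points, and 78.8% and 83.3% of windows went the same way in the measuring tables. Gains did not carry over. The 989 windows that gained at least 20 points in replicate 1 (0.124%) went from 56.8% to 57.7% in replicate 2, and the 596 chosen in replicate 2 (0.0747%) went from 57.7% to 56.3% in replicate 1. Of these gains 50.3% and 45.8% went the same way in the measuring table.

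**Figure D3:**
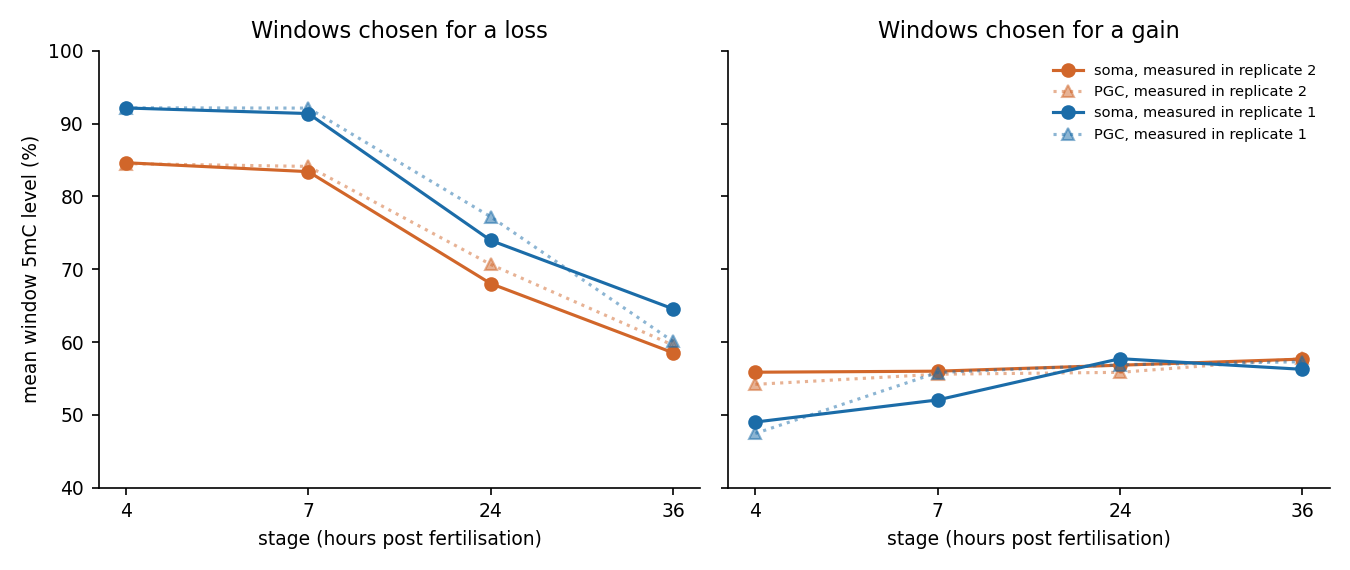
Mean 5mC level by stage of windows chosen in one replicate table for a loss (left) or a gain (right) of 20 points or more in soma between 24 and 36 hpf, measured in the table that took no part in the choice. Circles and solid lines are soma, triangles and dotted lines are PGCs, and the vertical axis does not start at 0. From 24 to 36 hpf windows chosen for a loss went from 68.0% to 58.5% and from 74.0% to 64.6% in soma. Those chosen for a gain lay between 56.3% and 57.7% at these 2 stages. Measured in replicate 1, the latter had stood at 49.0% at 4 hpf and 52.1% at 7 hpf.

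In the measuring tables the windows chosen for a loss had stood at 84.6% and 92.1% at 4 hpf and at 83.4% and 91.4% at 7 hpf. A second choice made this order plainer, since it used no 36 hpf library. Windows with a loss of 20 points or more between 7 and 24 hpf in the other table went from 90.5% at 7 hpf to 64.9% at 24 hpf and 56.1% at 36 hpf in replicate 1, over 10825 windows. In replicate 2 the same choice gave 87.3%, 61.8% and 51.3% over 10141 windows. Their change from 24 to 36 hpf was -8.79 and -10.5 points, and 45.6% and 51.2% of them lost at least 10 points in that step. Windows that had lost under 10 points before differed by -0.945 and -1.53 points, and those that had risen by at least 10 points by 0.469 and 0.283 points. The mean loss from 24 to 36 hpf was thus largest in windows that had already lost 5mC.

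The loss around a chosen window was narrow. In the windows 500 bp to either side the measured change was -5.26 and -5.06 points in replicate 2 and -5.43 and -4.98 points in replicate 1. At 1000 bp it was -2.38 and -2.43 points in replicate 2 and -2.36 and -2.26 points in replicate 1. From there to 4000 bp it ran between -1.51 and -3.07 points, with the smallest losses at 1500 bp on either side in both replicates. It stayed below the mean of all windows of the same table, which was -1.58 points (replicate 2) and -1.01 points (replicate 1). The correlation of the change in one table with that of a neighbouring window in the other fell as fast at first. It was 0.143 in the window itself, 0.0799 at 500 bp, 0.0206 at 1000 bp and 0.0103 at 1500 bp. Further out it was higher again, at 0.0313 at 3000 bp and 0.0222 at 10000 bp.

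**Figure D4:**
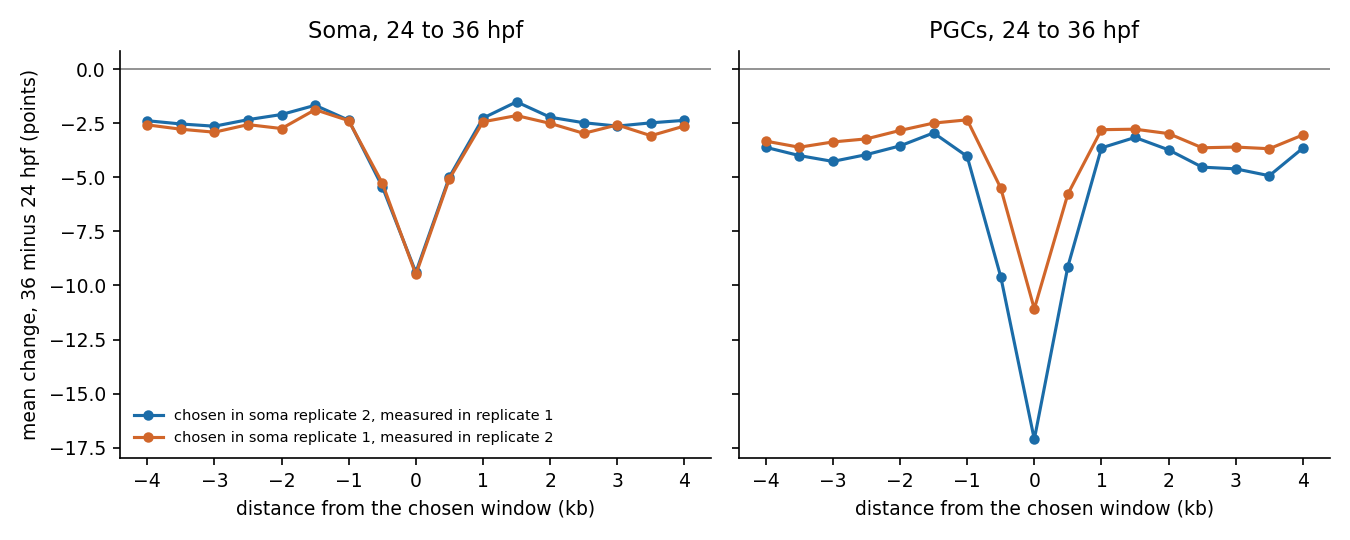
Mean change of the 5mC level from 24 to 36 hpf by distance from windows that lost at least 20 points in soma in one replicate table, measured in the other table, in soma (left) and PGCs (right). Each point is the mean over the tested windows at that distance, 3515 and 3961 at 0 and 1012 to 1687 beside it. The change is -9.49 and -9.40 points in the chosen window of soma and between -2.26 and -2.43 points at 1000 bp.

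Windows named here were called by Fisher's test in both tables. They averaged at least 10 calls per CpG in each of the 4 somatic libraries of 24 and 36 hpf, so single CpGs could have fewer. In each direction they are the 10 such windows with the largest mean change. They were picked for their size, so their changes are a description, and none passed the edgeR test. Positions are those of danRer10, counted from 1, and whether they lie in genes was not analysed here. The largest loss, at chr20:24089001-24089500, had 80.3% and 69.2% at 24 hpf and 26.6% and 26.9% at 36 hpf, over 66, 91, 94 and 52 calls. All 5 of its CpGs were lower at 36 hpf in both tables. The window at chr18:20290001-20290500 is the densest of them with 27 CpGs, each of which was lower in both tables. Its level went from 73.9% and 68.1% to 36.0% and 15.9%, over 327 to 881 calls, so the libraries of 36 hpf lay 20.1 points apart yet well below those of 24 hpf.

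At chr20:32426501-32427000 the level was 92.7% and 88.3% at 24 hpf and 42.9% and 49.0% at 36 hpf. With 93.0% and 92.5% at 7 hpf, this window had lost little by 24 hpf, and its edgeR adjusted p of 0.0761 was the lowest of the 20 named windows. The window at chr3:41774501-41775000 had gone further than the others, from 91.2% and 94.97% at 7 hpf to 48.8% and 51.8% at 24 hpf and 13.4% and 5.04% at 36 hpf. It lay 750 bp from an early unmethylated run, the nearest of the 10. By contrast chr13:17400001-17400500 stood at 86.6% and 87.5% at 24 hpf and at 47.0% and 46.4% at 36 hpf. Its replicates thus differed by less than 1 point at each stage.

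The other losses were at chr7:46416501-46417000, chr2:39773001-39773500, chr4:17490001-17490500, chr5:32003501-32004000 and chr20:4963001-4963500, with mean changes of -41.8, -40.8, -38.4, -38.2 and -37.9 points. Over all 10 windows the somatic level was 79.6% to 100% at 4 and 7 hpf, 48.8% to 92.7% at 24 hpf and 5.04% to 49.0% at 36 hpf. The stages did not overlap in any of them. All 95 of their CpGs were lower at 36 hpf in both tables, and at 94 of these both libraries of 36 hpf were below both of 24 hpf. The edgeR adjusted p ranged from 0.0761 to 0.4997, and that of the quasi-binomial fit from 0.000115 to 0.0300.

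**Figure D5:**
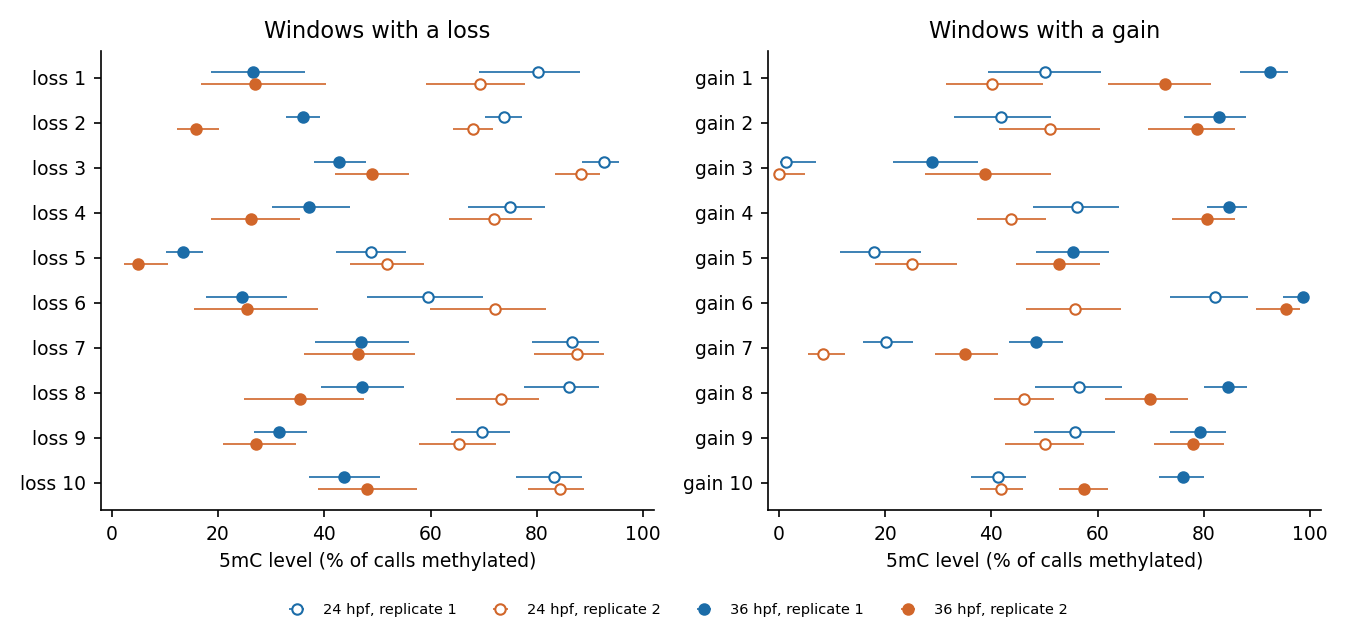
5mC level of the 10 named windows with a loss (left, in the order of their mean change) and the 10 with a gain (right) in the 4 somatic libraries. Open circles are 24 hpf and filled circles 36 hpf, colours mark the replicates, and bars are Wilson 95% intervals, which cover counting error only. The stages do not overlap in any of the 20 windows, which were chosen for this change.

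Among the gains, chr2:35630001-35630500 had the largest mean change, with 50% and 40.2% at 24 hpf and 92.5% and 72.7% at 36 hpf. At 7 hpf the same window had 23.1% in replicate 1 and 61.9% in replicate 2. The window at chr11:14802001-14802500 went from 41.8% and 51.0% to 82.8% and 78.7%, after 90.9% and 91.4% at 4 hpf and 34.2% and 43.1% at 7 hpf. Only chr2:36008001-36008500 started free of methylation at 24 hpf, with 1.28% and 0% over 78 and 74 calls. It had 28.8% and 38.7% at 36 hpf, but also 42.9% and 19.8% at 7 hpf. At chr22:16404001-16404500, with 14 CpGs, the level was 20.1% and 8.37% at 24 hpf and 48.4% and 35.1% at 36 hpf, after 11.1% and 6.19% at 4 hpf.

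The other gains were at chr9:12633001-12633500, chr4:76184001-76184500, chr23:37786001-37786500, chr20:34830001-34830500, chr16:33575501-33576000 and chr20:6608501-6609000, with mean changes of 25.2 to 32.8 points. Across the 10 gains replicates of soma at 7 hpf lay up to 56.3 points apart and those at 4 hpf up to 46.3 points, against 18.0 and 11.2 points across the 10 losses. The losses stood at 79.6% to 100% at these stages, which leaves replicates little room to differ, whereas the gains ranged from 6.19% to 100%. The part of level in these gaps was not tested. The 4 hpf levels of replicate 1 rest on few calls, down to 6 in a window, and the study's methods call the 4 hpf replicates technical. These gaps are those of single windows, and at chr20:34830001-34830500 the replicates were close at 7 hpf, with 83.1% and 84.3%. Of their 94 CpGs 84 were higher at 36 hpf in both tables.

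PGCs of the same stages were set beside soma to ask whether these changes were particular to somatic cells. The overall PGC level was 83.4% and 83.0% at 24 hpf and 81.9% and 82.0% at 36 hpf, a difference of -1.49 and -1.01 points beside -0.930 and -1.08 points in soma. When each CpG counted the same regardless of depth, PGCs differed by -1.83 and -1.92 points and soma by -0.958 and -1.49 points. By that weighting the PGC difference was the larger in both replicates, and this contrast of overall levels was not tested. In the windows called as losses in soma PGCs went from 79.7% and 76.6% to 59.96% and 59.8%, and 91.2% of these windows were lower at 36 hpf in both PGC tables, against 43.1% of all tested windows. In windows chosen for a loss in one somatic table, PGCs of the other table differed by -11.1 and -17.1 points. Windows chosen for a somatic loss of 20 points or more between 7 and 24 hpf differed by -18.8 and -13.6 points in PGCs of replicates 1 and 2. In soma the same windows differed by -8.79 and -10.5 points, and this contrast was not tested. For gains the accord was weaker. PGCs averaged 49.7% and 48.0% at 24 hpf and 57.0% and 54.4% at 36 hpf in these windows, and 46.9% of them were higher in both PGC tables, against 12.8% of all tested windows.

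All 10 named losses were lower at 36 hpf in both PGC tables, with differences of -8.86 to -55.8 points and no overlap of the PGC stages in any of them. At chr20:24089001-24089500 the PGC level was 80% and 67.7% at 24 hpf and 34.6% and 18.4% at 36 hpf, close to the somatic values. Of the 10 named gains 5 were higher in both PGC tables. At chr9:12633001-12633500, which is not among these 5, PGCs had 66.3% and 58.3% at 24 hpf, then 63.8% and 70.5% at 36 hpf. Tested alone over 708050 windows, the PGC step gave 165 losses and 4 gains by edgeR at an adjusted p under 0.05. The quasi-binomial fit called 7411 losses and 523 gains in PGCs. In soma these fits called 0 and 1, and 778 and 71, over 798040 windows. Such counts also depend on depth and spread, so they do not compare the cell types. The difference between the somatic and the PGC step itself was tested with an interaction term in edgeR over the 708050 windows. It called 0 windows (0%) in either direction at an adjusted p under 0.05, with 8248 lower and 19987 higher in soma than in PGCs at an unadjusted p under 0.05 (1.16% and 2.82%). The quasi-binomial fit and limma also called 0, where 1.15% and 2.81% of windows in the former, and 10990 and 17550 windows in the latter, were lower and higher at an unadjusted p under 0.05. No window was thus shown to change differently in soma, which does not show that the steps were alike, the more so as the edgeR fit had little power on simulated windows.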

How the data were processed

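Soma and PGCs of 4 stages were profiled by whole-genome bisulfite sequencing, 2 libraries in each of 8 groups. The authors trimmed reads with fastp 0.12.5, mapped them with WALT to danRer10, removed duplicates with Picard 2.3.0 and extracted calls with MethylDackel, joining both strands and dropping likely variant sites. For every CpG and library the deposited tables, 1 for each replicate number, give the raw count of calls and how many were methylated, and a table lists only CpGs covered in all of its libraries. Groups came from the labels. The pair of stages and the classes were chosen to be described with earlier results of these data known, and libraries were then assigned by label.

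Levels, classes and Fisher's tests were computed in Python 3.11.15 (numpy 2.4.6, scipy 1.17.1, numba 0.67.0), and windows were fitted in R 4.3.3 with edgeR 4.0.16 and limma 3.58.1 on log2 ratios with a pseudocount of 1. The edgeR fit used 1 term per library for depth, a stage term on the methylated counts and a common dispersion from 5000 evenly spaced windows. Runs joined adjacent windows whose summed 4 and 7 hpf somatic level was below 10%. Thinned shares are hypergeometric expectations. Nuclear calls on the shared CpGs ranged from 136860163 to 221897257 in the 4 libraries. Tests across windows were tested on simulated data. There the edgeR fit, kept as designed, missed nearly all windows given large changes, whereas limma and the quasi-binomial fit recovered most of the largest, so a low edgeR count does not show that windows were unchanged. The simulated libraries had a single assumed spread, and only windows at intermediate to high levels were changed. The named windows followed a rule that took windows called by edgeR first and filled the list from those called by Fisher's test, and the 1 window edgeR called missed its depth minimum. Alternatives covered weighting, coverage, CpG sets, correction for unconverted cytosines, window length, filters, thresholds, tests, pairing of replicates and omission of libraries. Gene lists were to be examined by promoter methylation, but no danRer10 annotation or sequence was used here, so it was not done and no genes are named.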

Additional observations from a re-analysis of the deposited data

How the results depend on the processing

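The lower somatic level at 36 hpf kept its direction in 11 of 11 alternatives (-1.23 to -0.930 points). Not all of these are separate evidence. The replicate block leaves the difference as it is, and omission of either replicate number gives the within-table differences printed above. Whether same-numbered libraries are pairs cannot be told, since the labels give nothing they share. Their deviations from the stage means correlated at 0.179 over windows, in only 2 pairs. The main edgeR fit did not pair them, whereas the differences within a replicate number and Fisher's tests set same-numbered libraries against each other. With a replicate block edgeR called 1710 losses and 177 gains and limma, added after seeing the data, 29 and 10, and the interaction with cell type stayed at 0 in a block fit added later. The edgeR block fit of soma took its spread wholly from a trend shared by all windows. A window's own spread between libraries thus does not enter those calls, unlike in the main fit. The interaction could not be fitted without either replicate number, as no residual degrees of freedom were left. The edgeR counts were otherwise 778 losses and 71 gains in the quasi-binomial fit chosen after seeing the data, 221 and 35 with 1 CpG and 5 calls, and 20 to 310 losses and 5 to 105 gains without 1 library, while the gain was 0 with 10 CpGs and 60 calls, in limma and in limma centred on the median change. Fisher calls numbered 2707 losses and 177 gains at an adjusted p under 0.05, 516 and 33 at 20 points, 6957 and 615 by the Cochran-Mantel-Haenszel test, and 7932 to 7957 losses and 1083 to 1847 gains in a single table, and 88.0%, 81.1% and 91.9% to 94.0% of calls were losses without replicate 1, without replicate 2 and elsewhere. Windows chosen for a loss measured -7.72 points at a minimum of 10 points and -9.92 at 30, and those chosen for a gain 0.837 and -1.46 points with either replicate as the choosing table. The level classes depended most on what set the class. Windows at 50 to 70% differed by -2.93 points when classed by the same table and by -0.0671 when classed by 7 hpf, those at 90 to 100% by -1.63 in the same table, those at 80 to 90% by 0.0381 in the same table, those at 30 to 50% by 0.556 by 7 hpf, and those at 10 to 30% by -0.145 by 7 hpf and from -0.347 to 1.22 in a single table. A class set in the table it is measured in takes the counting error of that table into the change, and other causes were not tested. Windows with at least 20 CpGs differed from -0.150 to 0.0331 points in a single table. With 108 to 174 calls in the median window, and 2 libraries a stage, changes of a few points in a single window were not detectable.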

Other observations

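The step from 24 to 36 hpf was the last of 3 in these libraries. In soma the overall 5mC level differed by 0.527 and 0.547 points from 4 to 7 hpf in replicates 1 and 2, by -0.882 and -2.11 points from 7 to 24 hpf and by -0.930 and -1.08 points from 24 to 36 hpf, where the last 2 steps share the 24 hpf libraries. When each CpG counted the same regardless of depth, the values were -0.156 and -0.371, -2.52 and -2.34, and -0.958 and -1.49 points. The second step thus took a larger value than the third in both replicates by this weighting, and in replicate 2 alone by pooled calls.

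Window changes from 24 to 36 hpf had an SD of 5.27 and 5.46 points within a table, and the part shared by both tables, the square root of their covariance, was 2.03 points. In windows at 90 to 100% at 7 hpf the shared part was 2.06 points and 1270 of 663414 were called as losses and 2 as gains. Those still near that level at 24 hpf had little room to gain 10 points. In windows at 30 to 50% at 7 hpf the SDs were 14.1 and 12.9 points, the correlation between the tables was -0.00122, and 17 losses and 22 gains were called among 4325 windows. In windows at 10 to 30% at 7 hpf 13 losses and 26 gains were called among 5839, and differences between these classes were not tested. All of these are descriptions over windows, which are not replicates.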
